A study of Mus musculus with 24 samples.

Results

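The protocadherins are the largest family of cadherin-type adhesion proteins, and their genes are of 2 kinds. The clustered genes lie in 3 arrays, called alpha, beta and gamma, and the non-clustered genes are scattered over the genome. Of the 49705 entries in the expression table, 69 were protocadherins by name on the primary assembly. They comprised 14 alpha, 22 beta and 22 gamma members, 58 in all, and 11 non-clustered genes. The symbol Pcdha11 was carried by 2 alpha entries, which are kept apart here by their identifiers. The X-linked gene Pcdh11x was not taken, because its name does not match the naming rule.

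In the clusters, each variable exon has a promoter of its own and codes for a whole extracellular region, transmembrane segment and part of the cytoplasmic tail. In the alpha and gamma clusters the variable exon is spliced to constant exons shared by the cluster, whereas beta genes have no such constant exons. A neuron expresses a small and largely random choice of the variable promoters, which is set by DNA methylation, by the insulator protein CTCF and by cohesin, and the resulting proteins bind like with like, so that a cell can tell its own branches from those of others. The C-type members at the 3′ ends of the alpha and gamma clusters (Pcdhac1, Pcdhac2, Pcdhgc3, Pcdhgc4 and Pcdhgc5) are regulated differently from the others. Non-clustered protocadherins of the delta-1 and delta-2 groups act in cell sorting, axon growth and the actin cytoskeleton, often with classical cadherins, and several of them mark particular territories of the embryonic brain.

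RNA was measured in 24 libraries of organoids that form optic vesicle tissue, in 8 groups of 3 replicates. The cells were mouse embryonic stem cells of the Rx-GFP K/I EB5 line, in which GFP is knocked into Rax, a homeobox gene of the early eye field, and all groups carried this allele. Aggregates were grown in suspension (SFEBq culture) from dissociated cells, with 2% Matrigel added on day 1. Live cells were collected on day 0, the day of plating, and on days 1, 2 and 3, and on days 4 and 5 the dissociated cells were sorted by GFP into a positive and a negative gate. Each library came from pooled organoids of 1 reporter line, and the GFP-negative gate is not 1 cell type: by the study's methods it also took in some cells of low GFP signal, and Rax had means of 115 on day 3, 975 in the day 4 GFP-negative and 9559 in the day 4 GFP-positive cells. No group received another treatment or genotype.

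Values are normalized counts per gene, and their totals lay between 39849111 and 51587535 per library. Spearman correlations between replicates over genes lay between 0.953 and 0.993, and the lowest belonged to day 0 replicate 1, which stood apart from the other day 0 libraries. The eye field markers checked the gates: their summed level was 45893 to 47745 in the day 4 GFP-positive libraries against 8869 to 10833 in the GFP-negative ones, and 54804 to 57307 against 8351 to 9094 on day 5. All 5 eye field markers were called higher and all 5 pluripotency markers lower in the GFP-positive cells on both days. A call required an adjusted p under 0.001 (limma, Benjamini-Hochberg adjustment over the 21005 genes tested) and an absolute log2 fold change above 1.5, and log2 fold changes refer to log2(normalized count + 1). Of the 69 protocadherins, 56 passed the filter of at least 10 in at least 3 libraries: 7 alpha, 16 beta, 22 gamma and all 11 non-clustered genes. The filter removed Pcdha1, Pcdha2, Pcdha3, Pcdha5, Pcdha7, Pcdha8 and Pcdhac1 and Pcdhb1, Pcdhb9, Pcdhb10, Pcdhb12, Pcdhb13 and Pcdhb15, none of which was listed at 0 in every library. Of the 56, 34 reached the filter in the libraries of days 0 to 3 alone (2 alpha, 3 beta, 20 gamma and 9 non-clustered genes), and the other 22, 13 of them beta members, passed with the help of the day 4 and day 5 libraries. For those 22 a higher level on day 4 or day 5 was largely set by the filter, so counts and medians over tested members of a later against an earlier day are given as descriptions, whereas the sums over a class hold every member. In bulk RNA a smaller number of expressing cells and less RNA per cell cannot be told apart.

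All 3 clusters lie on the plus strand of chromosome 18 (GRCm38), the alpha cluster at chr18:36930184-37187661, the beta cluster at chr18:37264938-37524479 and the gamma cluster at chr18:37661793-37841873. Pcdh1 and Pcdh12 lie on the minus strand of the same chromosome. The shared exons bear on how far single members can be told apart. A median of 53.4% of an alpha member's exonic bases and 44.7% of a gamma member's was exonic in another member of its cluster, against 0% for beta members, and 2860 exonic bases were common to all alpha members and 2116 to all gamma members. The share of a member's 31-base words found in no other gene's transcripts had a median of 35.7% in the alpha cluster, 51.0% in the gamma cluster and 88.2% in the beta cluster, and 99.9% among the non-clustered genes. It was lowest for Pcdhga10, at 0.617%, so the level of that gene is the least certain. Since the abundance estimates divide shared reads among members, single alpha and gamma values are less certain than the sums over a cluster. Gamma exons also overlap the readthrough models Gm37013, Gm37388, Gm42416 and Gm38182 on the same strand, and Pcdhgb8 is annotated as a polymorphic pseudogene. On the opposite strand, BC037039 overlaps Pcdhgc3, and Gm26672 overlaps Pcdhga11 and other gamma members.

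The summed levels of all 3 clusters were higher on days 4 and 5 than on days 0 to 3, although single members such as Pcdhgc4 went the other way. Summed gamma levels were 3047 ± 382 (SD, n = 3) on day 0, then 2351 ± 121, 2224 ± 11 and 2722 ± 123 on the following 3 days. In GFP-negative cells the gamma sum was 6677 ± 731 on day 4 and 9972 ± 748 on day 5, and in GFP-positive cells it was 6302 ± 323 and 7799 ± 412. Without Pcdhgc3, Pcdhgc4 and Pcdhgc5 the GFP-positive libraries lay above the GFP-negative ones on both days. These smaller sums were 3719 ± 341 against 2667 ± 162 on day 4 and 4254 ± 271 against 3726 ± 170 on day 5. No library of day 4 or day 5 overlapped with those of days 0 to 3 in the gamma, the beta or the alpha sum. Beta sums stood at 69.4 ± 31 on day 0 and 96.9 ± 8.33 on day 3, at 512 ± 39.2 and then 766 ± 57.4 in the GFP-positive cells of days 4 and 5, and at 266 ± 43.8 and then 522 ± 94.1 in the GFP-negative cells. The GFP-positive libraries lay above the GFP-negative libraries in the beta sum on both days. The alpha sum was 25.6 ± 2.77 on day 0 and 91.3 ± 20.3 on day 3, and its highest library of days 0 to 3 (110.1) lay close to its lowest of days 4 and 5 (116). Without Pcdhac1 and Pcdhac2 it was 81.7 ± 16.9 on day 3 and 76.6 ± 8.17 in the day 5 GFP-positive cells, with overlap. In the other groups of days 4 and 5 this smaller sum had means of 115 to 129. The whole alpha sum went the other way between the gates on both days, without overlap. It was 188 ± 47.4 in GFP-negative against 133 ± 16.3 in GFP-positive cells on day 4, and 475 ± 61.6 against 144 ± 16.9 on day 5.

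The non-clustered sum followed another course. It was 1572 ± 502 on day 0, 7668 ± 942 on day 3 and 7206 ± 265 in the day 5 GFP-positive cells, so the level of day 3 and that of day 5 overlapped. Its makeup did change: Pcdh1 held 87.6% of the sum of the group means on day 3, whereas on day 5 Pcdh18 had the largest share, 39.6% in GFP-negative and 47.1% in GFP-positive cells. Leaving out day 0 replicate 1 changed the day 0 sums to 2856 (gamma), 54.0 (beta) and 1772 (non-clustered).

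**Figure D1:**
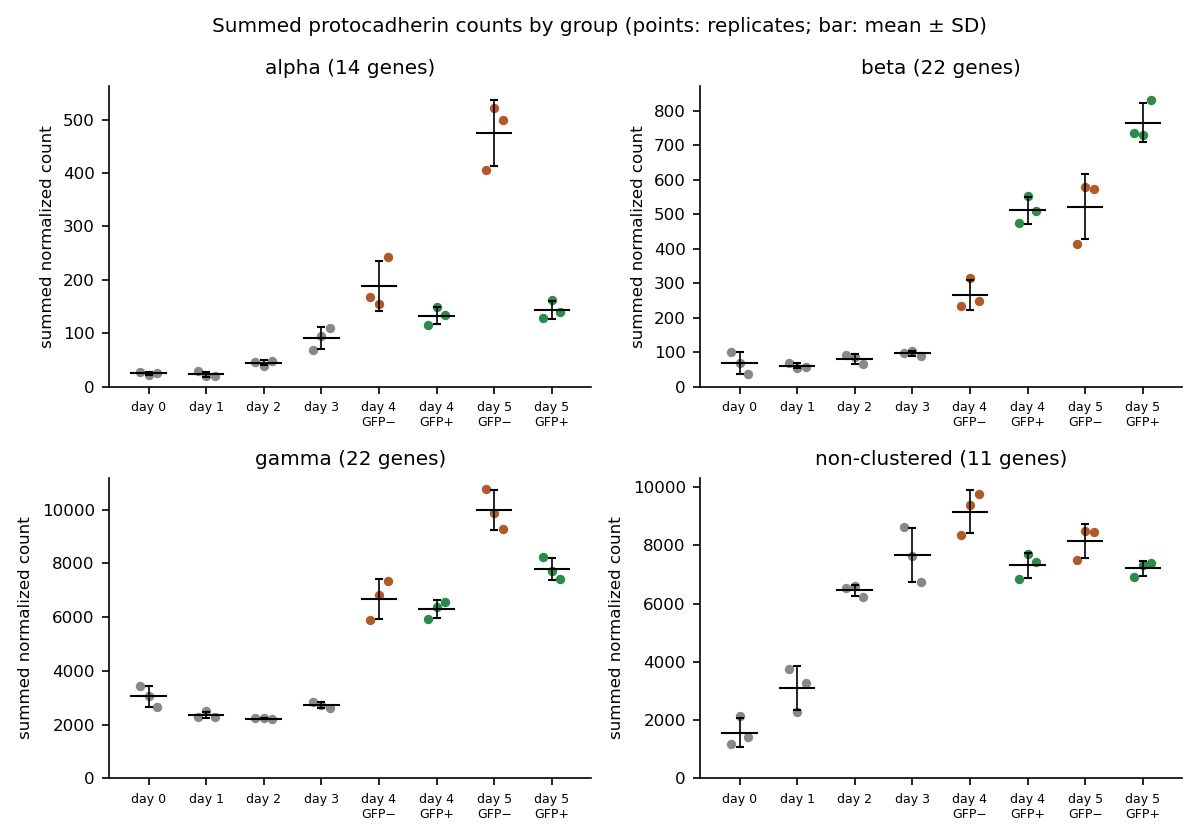
Summed normalized count (vertical axis, linear and starting at 0) of each protocadherin class in the 8 groups, with a point for each library and bars for the mean and SD. Alpha, beta and gamma sums of the day 4 and day 5 libraries lie above all libraries of days 0 to 3, and the day 5 alpha sum is 475 in GFP-negative against 144 in GFP-positive cells.

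Before day 4 few protocadherins passed both thresholds of a call. From day 0 to day 1, 1 member was called higher, against 0.343% of all genes, and 1 lower, against 0.395%. At an adjusted p under 0.05 with no fold required, 7 of 22 gamma members (31.8%) were lower, against 4.79% of all genes, and 20 of the 22 gamma changes were negative (median -0.60), while 49.7% of all genes had a positive change. Over all 56 members 33.9% had an unadjusted p under 0.05, against 22.5% of all genes. Pcdhb2 was at 0.956, 0 and 0.608 in the day 0 libraries and at 6.04, 14.5 and 4.46 on day 1, with a log2 fold change of 2.52 ± 0.39 (SE, adjusted p = 0.000213). Pcdhgb7 was at 109, 50.6 and 63.0 on day 0 and at 18.0, 23.8 and 28.2 on day 1, and fell by 1.57 ± 0.28 (adjusted p = 0.000802). Neither gene's libraries overlapped between the days, but the Pcdhb2 call was lost without day 0 replicate 2 (2.25) or day 1 replicate 2 (2.08), and the Pcdhgb7 call was lost when any library but day 0 replicate 2 was left out (-1.26 to -1.71).

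From day 1 to day 2, 2 members rose (0.943% of all genes) and 0 fell (0.528%), with 12 of the 56 (21.4%) at an unadjusted p under 0.05 in limma in either direction, against 28.2% of all genes. Pcdh18 was at 77.9, 23.5 and 80.6 on day 1 and at 204, 223 and 242 on day 2 (2.05 ± 0.37, adjusted p = 0.000491). Pcdh9 was at 1.51, 6.62 and 0.724 on day 1 and at 17.5, 28.6 and 15.9 on day 2 (2.71 ± 0.50, adjusted p = 0.00062). Both genes had day 2 libraries wholly above those of day 1. The Pcdh18 call was lost without day 1 replicate 2 (1.48) or without day 2 replicate 1, 2 or 3 (2.11, 2.05 and 1.99), and the Pcdh9 call in every such fit except that without day 1 replicate 2, where the change was 3.33 instead of 2.26 to 2.86. From day 2 to day 3, Pcdhgb2 alone rose (0.714% of all genes), from 1.99, 8.39 and 10.6 to 31.9, 34.3 and 25.8 (2.19 ± 0.36, adjusted p = 0.000347), and 0 members fell (0.290%). At an adjusted p under 0.05 with no fold required, 15 members (26.8%) were higher in this step, against 7.46% of all genes, of which 11 were gamma members (11 of 22), and 45 of the 56 changes were positive, as were 47.7% of those of all genes. In limma 41.1% of the members had an unadjusted p under 0.05, against 28.2% of all genes. Cell markers also moved from day 2 to day 3: 3 of 7 mesoderm, 1 of 4 endoderm and 3 of 5 eye field markers were called higher. Their part in the protocadherin changes was not tested. The Pcdhgb2 call was lost without day 2 replicate 1 (1.59), the lowest library, or without day 3 replicate 1, 2 or 3 (2.16, 2.11 and 2.31), and 2 members rose and 1 fell with day 0 replicate 1 left out of the shared fit.

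Over the whole span from day 0 to day 3, 6 of 56 members rose, where 5.91% of all genes did, and 0 fell, where 6.12% did. In limma 26 members (46.4%) had an unadjusted p under 0.05 in this comparison, against 50.3% of all genes. The 6 were Pcdh1 (2.67, adjusted p = 1.15e-08), Pcdh18 (3.14, adjusted p = 5.62e-07), Pcdhb2 (2.49, adjusted p = 2.57e-05), Pcdh9 (3.15, adjusted p = 2.63e-05), Pcdha12 (2.87, adjusted p = 0.000662) and 1 of the Pcdha11 entries (ENSMUSG00000007440). The last was listed at 0 in all 3 day 0 libraries and at 4.89, 3.43 and 5.72 on day 3, so no fold is given, and its call was lost without day 0 replicate 2 or 3 or day 3 replicate 1 or 3 (adjusted p = 0.00137 to 0.00242). Pcdha12 was at 14.0, 3.80 and 1.77 on day 0 and at 34.2, 48.0 and 43.8 on day 3, and its call was lost when any library but day 0 replicate 1 was left out (2.33 to 3.00). Without day 0 replicate 1, 7 members rose and 1 fell. Cell markers moved over the same span: 5 of 7 mesoderm, 2 of 5 eye field and 1 of 4 endoderm markers were called higher. Called lower were 4 of 5 pluripotency, 3 of 6 tested endothelial and 1 of 4 neuronal markers. Their part in the protocadherin changes was not tested.

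Between day 3 and day 4 many beta and gamma members rose in the GFP-positive cells. Of all 56 members tested, 24 rose, against 3.33% of all genes tested, and 2 fell, against 7.36%. The median log2 change was 1.90 over the 56 members and -0.01 over all genes. The beta cluster had a median of 2.34 with 7 of its 16 tested members called higher (2.15 to 3.79), the gamma cluster a median of 1.90 with 13 of 22 called higher (1.57 to 3.64), and the alpha cluster a median of 0.71 with 0 of 7 called and 1 at an unadjusted p under 0.05 in limma, where 44.9% of all genes were. Of the 34 members that reached the filter on days 0 to 3 alone, 17 rose and 2 fell (median 1.83). Of the 13 beta members that did not, 5 were among the 7 called, so the beta count largely rests on genes that the filter took in for their later levels.

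Among beta members, Pcdhb11 was at 2.45, 5.71 and 1.90 on day 3 and at 55.7, 46.8 and 65.3 in the day 4 GFP-positive libraries (3.79 ± 0.56, adjusted p = 1.32e-05). Pcdhb3 was at 1.22, 4.56 and 2.85 on day 3 and at 55.7, 44.0 and 47.2 on day 4 (3.78 ± 0.55, adjusted p = 9.65e-06). In both genes the lowest day 4 library was several times the highest of day 3. Pcdhb16 and Pcdhb22 rose by 2.99 and 2.50, and the Pcdhb22 call was lost without day 3 replicate 3 (2.17) or without day 4 GFP-positive replicate 1 or 2 (2.53 and 2.39). The number of the 22 beta members with a mean of at least 10 was 2 on day 3, 14 in the day 4 GFP-positive cells and 16 in either gate on day 5.

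Among gamma members, Pcdhgb4 was at 32.1, 32.4 and 48.0 on day 3 and at 284, 303 and 352 in the day 4 GFP-positive libraries (3.05 ± 0.22, adjusted p = 4.87e-10). Pcdhgb5 was at 24.4, 27.5 and 20.0 on day 3 and at 204, 237 and 224 on day 4 (3.16 ± 0.28, adjusted p = 1.27e-08). The day 3 libraries of both B-type genes overlapped with those of day 0, and the day 4 libraries stood several times higher. Pcdhgb6 rose by 3.13 and Pcdhga6 by 3.64, and Pcdhga6, at 0, 6.85 and 5.71 on day 3, lost its call without day 3 replicate 1 (2.69) or without day 4 GFP-positive replicate 1, 2 or 3 (3.70, 3.64 and 3.58). Pcdhga11, the third highest gamma member by mean count over all libraries, rose by 1.57 ± 0.15 (adjusted p = 2.48e-08), with 1.47 without day 4 GFP-positive replicate 2.

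On days 4 and 5 Spearman's rho between a member's place in its cluster and its level per kb of exons lay between -0.12 and 0.30 over the 22 beta members and between -0.17 and 0.23 over the 22 gamma members, and it was positive in all 4 groups over the 14 alpha members (0.22 to 0.42). The members share libraries, so these values are given as a description.

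**Figure D2:**
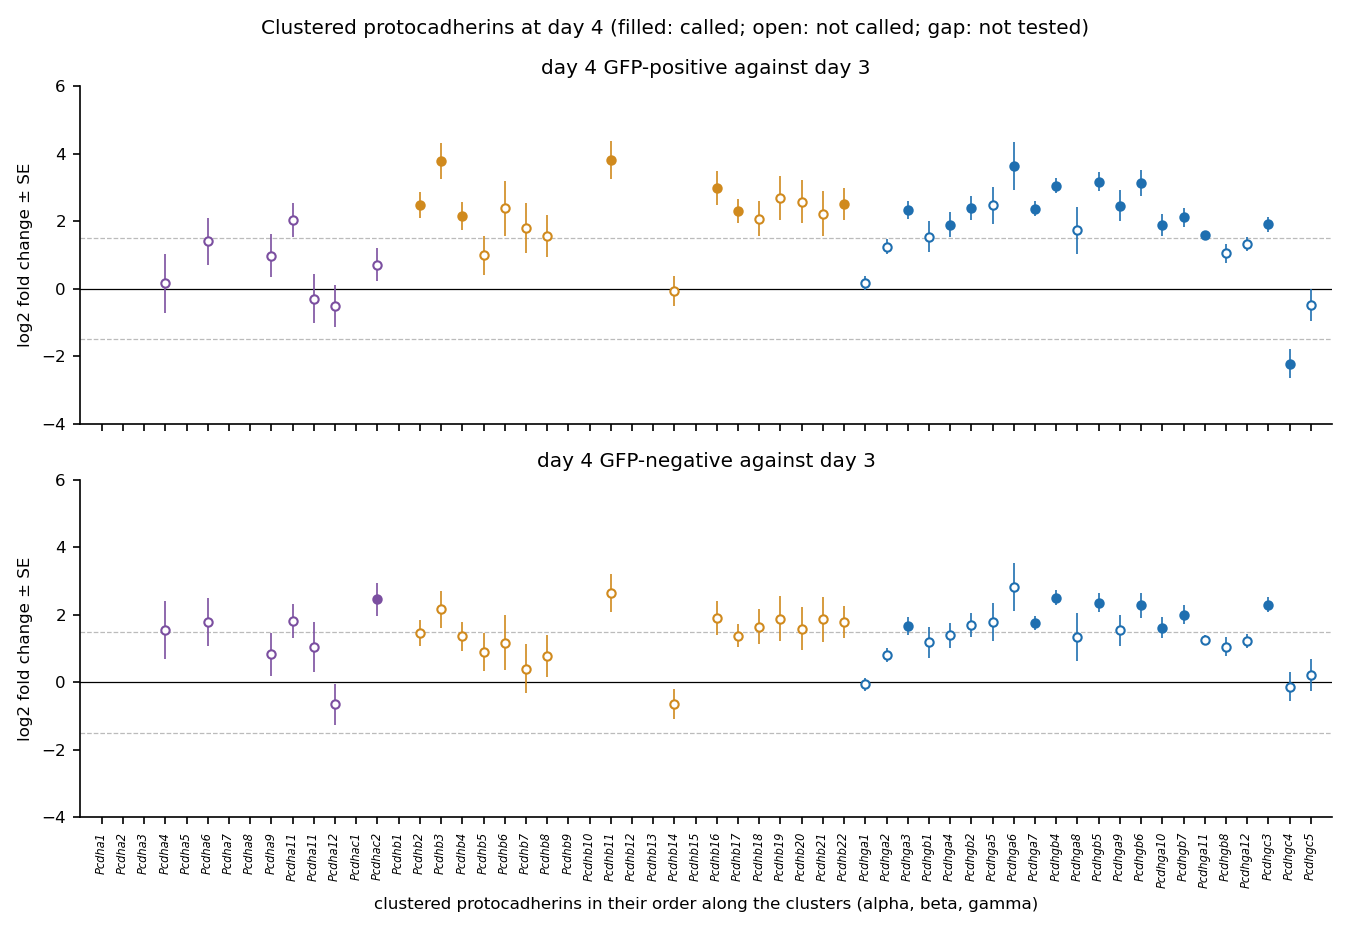
Log2 fold change against day 3, with its SE, of each tested alpha, beta and gamma member in its order along the cluster, for day 4 GFP-positive (upper panel) and GFP-negative cells (lower panel). Filled points are called, open points are not, gaps are members not tested and dashed lines mark a change of 1.5. Most beta and gamma points lie above 0 in both panels, with Pcdhb11 highest (3.79) and Pcdhgc4 lowest (-2.22) in the upper one.

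In the GFP-negative cells 13 members rose from day 3 to day 4, where 2.00% of all genes did, and 0 fell, where 0.871% did. The median change over the 56 members was 1.57, and 40 (71.4%) had an unadjusted p under 0.05 in limma, against 29.7% of all genes. The 13 were Pcdhac2, 8 gamma members (1.61 to 2.51) and 4 non-clustered genes described below, and all of them reached the filter on days 0 to 3 alone. The 4 largest changes among the called gamma members were those of Pcdhgb4 (2.51), Pcdhgb5 (2.35), Pcdhgc3 (2.30) and Pcdhgb6 (2.28). The Pcdhgb6 call was lost without day 3 replicate 2 (2.21) or day 4 GFP-negative replicate 3 (2.15). Of the 16 tested beta members 0 were called, with a median of 1.52 and 11 at an unadjusted p under 0.05 in limma. Markers of other cells moved in the same comparison: 4 of 7 primitive streak and mesoderm, 3 of 4 neural crest, 1 of 4 endoderm, 1 of 6 tested endothelial and 4 of 5 eye field markers were called higher, and 1 neural crest and 1 pluripotency marker lower. The mesoderm sum was 2977 to 3309 on day 3 and 5919 to 9538 in the day 4 GFP-negative libraries. In the GFP-positive cells 3 of the 7 mesoderm, 2 endoderm, 2 endothelial and 1 neural crest marker were called lower than on day 3, as were all 5 pluripotency markers, and 1 endoderm, 1 neural crest and all 5 eye field markers were called higher. The part of these cells in the protocadherin changes was not tested. Both gates were compared with the same day 3 libraries, so their changes are not independent.

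The makeup of the gamma cluster changed as well, through its C-type genes. Pcdhgc4, which codes for a C-type protein needed for the survival of neurons, was at 1991, 1115 and 925 on day 0 and at 1096, 1042 and 888 on day 3, the highest gamma member in every group up to that day. It was at 517, 183 and 104 in the day 4 GFP-positive libraries and fell by 2.22 ± 0.43 from day 3 (adjusted p = 0.000286). The call was lost without day 3 replicate 1 or 2 (-2.16 and -2.20) or day 4 GFP-positive replicate 2 or 3 (-2.11 and -1.70), and the change was -2.86 without day 4 GFP-positive replicate 1, the highest of that group. In the day 4 GFP-negative libraries Pcdhgc4 was at 906, 834 and 1013, which overlaps with day 3. On day 5 it was at 568, 219 and 149.7 in GFP-negative and at 104, 81.3 and 99.2 in GFP-positive cells.

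Pcdhgc3, a C-type member that is broadly expressed in neural cells, was at 622, 579 and 594 on day 3 and at 2027, 2332 and 2379 in the day 4 GFP-positive libraries (1.90 ± 0.23, adjusted p = 7.47e-07). It was at 2349, 3116 and 3482 in the day 4 GFP-negative libraries (2.30 ± 0.23, adjusted p = 3.29e-07). On day 5 it was at 6244, 5806 and 5524 in GFP-negative and at 3547, 3432 and 3239 in GFP-positive cells. The GFP-negative libraries were all the higher on day 5, where the difference between the gates was -0.78 (adjusted p = 0.02) and was not called.

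As a share of the gamma sum in each library, Pcdhgc4 made up 43.1% on day 0 (35.6% without replicate 1), 55.7% on day 2, 37.0% on day 3 and 13.8% in the day 4 GFP-negative cells. In the day 4 GFP-positive libraries its share was 8.70%, 2.87% and 1.58%, in the day 5 GFP-negative libraries 5.28%, 2.22% and 1.61%, and in the day 5 GFP-positive cells its mean was 1.22%. Replicate 1 was the highest in both of those series of 3. The share of Pcdhgc3 was 22.0% on day 3, 35.6% (GFP-positive) and 44.4% (GFP-negative) on day 4, and 43.7% and 58.8% on day 5. Per kb of exons, Pcdhgc3 reached 1065 in the day 5 GFP-negative cells, the highest mean of any protocadherin in any group. Pcdhgc5, the last C-type gene of the cluster, had means between 34.2 and 109.7 over the 8 groups and was called in none of the comparisons.

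**Figure D3:**
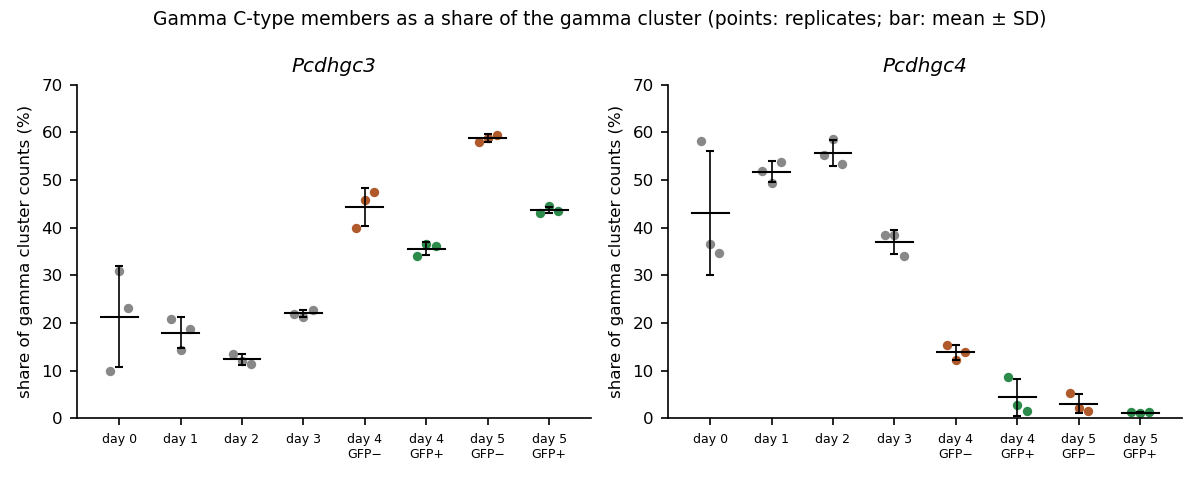
Share of the summed gamma normalized counts (percent) held by Pcdhgc3 and by Pcdhgc4 in each library of the 8 groups, with a point for each library and bars for the mean and SD. The share of Pcdhgc4 is 37.0% on day 3 and 1.22% in the day 5 GFP-positive cells, and that of Pcdhgc3 is 22.0% and 43.7%.

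The alpha cluster was the lowest of the 3 clusters in summed level in every group, and its largest signal came from Pcdhac2, the C-type gene at its 3′ end. Pcdhac2 was at 4.89, 12.6 and 11.4 on day 3, at 40.3, 45.6 and 84.1 in the day 4 GFP-negative libraries and at 311, 363 and 355 in the day 5 GFP-negative libraries. In GFP-positive cells it was at 9.08, 13.7 and 28.3 on day 4 and at 57.1, 79.9 and 59.7 on day 5. The GFP-negative libraries were higher on each day without overlap. Both steps of the GFP-negative series were called, at 2.46 ± 0.48 from day 3 to day 4 (adjusted p = 0.000874) and at 2.65 from day 4 to day 5 (adjusted p = 0.000814). Each call was lost whichever of its 6 libraries was left out, with changes of 2.07 to 2.68 and 2.45 to 2.97.

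The gate difference of Pcdhac2 did not reach a call on either day, with -1.74 on day 4 (adjusted p = 0.0147) and, a day later, -2.38 (adjusted p = 0.00101). Its share of the alpha sum on day 5 was 72.5% in GFP-negative and 45.4% in GFP-positive cells. Pcdha12, the next alpha member by mean over all libraries, was at 34.2, 48.0 and 43.8 on day 3 and at 27.2, 18.5 and 26.2 in the day 5 GFP-positive libraries. The other alpha members that passed the filter, Pcdha4, Pcdha6, Pcdha9 and the 2 Pcdha11 entries, had means of at most 28.5 in any group.

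The 11 non-clustered genes were Pcdh1, Pcdh7 and Pcdh9 of the delta-1 group, Pcdh8, Pcdh10, Pcdh17, Pcdh18 and Pcdh19 of the delta-2 group, and Pcdh12, Pcdh15 and Pcdh20. Pcdh8, Pcdh9, Pcdh17 and Pcdh20 lie on chromosome 14, Pcdh10 and Pcdh18 on chromosome 3, Pcdh7 on chromosome 5, Pcdh15 on chromosome 10 and Pcdh19 on chromosome X. The 4 delta-2 genes called higher than on day 3 in at least 1 gate of day 4 were Pcdh17, Pcdh18, Pcdh8 and Pcdh19, and the 150 bases upstream of their RefSeq starts (GRCm38.p6) are shown 5′ to 3′ on the strand of the gene. Capitals mark the word CCAAT or its reverse complement ATTGG, the motif bound by the factor NF-Y. The windows are chr14:84443413-84443562 on the plus strand (Pcdh17), chr3:49757317-49757466 on the minus strand (Pcdh18), chr14:79771313-79771462 on the minus strand (Pcdh8) and chrX:133688994-133689143 on the minus strand (Pcdh19).
Pcdh17: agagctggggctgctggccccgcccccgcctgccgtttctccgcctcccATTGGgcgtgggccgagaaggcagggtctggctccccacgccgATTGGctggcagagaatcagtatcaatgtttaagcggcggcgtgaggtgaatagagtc
Pcdh18: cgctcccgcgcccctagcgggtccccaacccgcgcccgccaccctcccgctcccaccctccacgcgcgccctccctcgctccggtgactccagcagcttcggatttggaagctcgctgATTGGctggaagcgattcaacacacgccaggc
Pcdh8: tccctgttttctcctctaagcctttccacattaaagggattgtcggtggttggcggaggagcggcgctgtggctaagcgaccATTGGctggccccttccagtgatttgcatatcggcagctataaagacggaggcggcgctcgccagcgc
Pcdh19: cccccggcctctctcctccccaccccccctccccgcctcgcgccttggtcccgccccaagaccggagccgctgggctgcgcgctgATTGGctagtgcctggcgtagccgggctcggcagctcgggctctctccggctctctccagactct
The word ended 54 and 97 bases before the start in Pcdh17, 28 in Pcdh18, 64 in Pcdh8 and 61 in Pcdh19.

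Of the 9 non-clustered genes outside chromosome 18, RefSeq gave 10 promoters, 2 of them overlapping promoters of Pcdh9. In windows from 250 bases before to 50 after the start and on both strands, CCAAT was in 9 of the 10 (all but that of Pcdh7), against 37.4% of 32851 promoters. The GC box word GGGCGG was in 4 (Pcdh10, Pcdh17, Pcdh18 and Pcdh19; 35.7% of all), the word TATAAA in 2 (Pcdh8 and Pcdh15; 13.6%) and the homeodomain word TAATTA in 0 (5.29%). None of these words contains another. A match describes the letters only.

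The delta-1 gene Pcdh1 was the highest non-clustered gene early on and declined later. It was at 617, 1666 and 1104 on day 0, at 3435, 2007 and 2944 on day 1, at 6041, 6094 and 5778 on day 2 and at 7831, 6564 and 5761 on day 3. The day 4 libraries were at 2019.9, 2103 and 1761 in GFP-positive cells (-1.77 ± 0.24 against day 3, adjusted p = 3.83e-06) and at 3473, 2962 and 3240.0 in GFP-negative cells, and those of day 5 at 729.8, 626 and 719 and at 1193, 929 and 1072. The level fell again from day 4 to day 5 in both gates, by 1.50 ± 0.24 in GFP-positive (adjusted p = 0.000188) and by 1.60 in GFP-negative cells (adjusted p = 0.00011). These calls lie close to the fold threshold. The first was lost without day 4 GFP-positive replicate 1 or 2 (-1.48 and -1.45) or day 5 GFP-positive replicate 2 or 3 (-1.43 and -1.53), and the second without day 4 GFP-negative replicate 1 (-1.55) or day 5 GFP-negative replicate 2 (-1.51).

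Pcdh7 was at 120.2, 199.9 and 167 on day 3. On day 4 it was at 581, 983 and 1101 in GFP-negative but at 99.4, 147 and 158 in GFP-positive cells, and on day 5 the values were 804, 1162 and 1033 against 690.3, 621 and 767. The gates did not overlap on either day, with a difference of -2.69 on day 4 (adjusted p = 0.00345) and -0.52 on day 5, neither of them called. Pcdh9, the third delta-1 gene, had means of 3.68, 2.95, 20.6 and 32.4 on days 0 to 3, of 89.7 (GFP-positive) and 51.0 (GFP-negative) on day 4 and of 411 and 177 on day 5. Its day 5 libraries were at 332, 459 and 441 in GFP-positive and at 155, 176 and 201 in GFP-negative cells, without overlap but without a call (1.20, adjusted p = 0.119).

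Pcdh17, a delta-2 gene linked to axon extension and synapse organization, had the largest change of the family on day 4. It was at 7.34, 5.73 and 11.4 on day 3, at 861, 1064 and 867 in the day 4 GFP-positive libraries and at 88.0, 119 and 78.2 in the GFP-negative ones. The log2 change was 6.71 ± 0.61 in GFP-positive (adjusted p = 1.7e-08) and 3.41 ± 0.61 in GFP-negative cells (adjusted p = 0.000396). On day 5 it was at 671, 593 and 841 in GFP-positive and at 153, 228 and 229 in GFP-negative cells, so the positive libraries were the higher ones on both days. The change in GFP-negative cells lost its call whichever of its 6 libraries was left out (3.22 to 3.66).

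Pcdh18, a delta-2 gene first known for its binding to the adaptor Dab1, rose early and in both gates alike. It had means of 56.5 ± 34.5 on day 0, 223 ± 18.9 on day 2 and 442 ± 22.4 on day 3. On day 4 it was at 2754, 2923 and 3183 in GFP-positive (2.74 ± 0.37, adjusted p = 3.72e-06) and at 2627, 3179 and 3510.3 in GFP-negative cells (2.80 ± 0.37, adjusted p = 1.15e-05). The gates overlapped on day 4 and on day 5, when the means were 3395 ± 334 and 3227 ± 199.9. Per kb of exons, its means of 550.4 to 633 from day 4 on were the highest of the non-clustered genes.

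Pcdh8, also named paraxial protocadherin and known from the segmentation of mesoderm as well as from synapses, was at 138, 193 and 187 on day 3. It was at 739, 941 and 981 in GFP-positive (2.36 ± 0.33, adjusted p = 7.57e-06) and at 763, 1083 and 1066 in GFP-negative cells (2.48 ± 0.33, adjusted p = 1.57e-05) on day 4. On day 5 the libraries of the gates no longer overlapped, at 627, 617 and 624 against 1496, 1453 and 1375, a difference of -1.21 that was not called (adjusted p = 0.0146). A gene on the opposite strand, Gm9748, overlaps Pcdh8, and whether reads were counted by strand is not given in the sources used here.

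Pcdh19, an X-linked delta-2 gene that acts with N-cadherin and in which variants cause an epilepsy, was at 74.3, 129 and 116 on day 3 and rose in GFP-negative cells to 699, 946 and 659 (2.86 ± 0.34, adjusted p = 2.95e-06). In the day 4 GFP-positive cells it was at 191, 271 and 286 (1.23, adjusted p = 0.00573), which was not called. The gates did not overlap on day 4 (-1.62, adjusted p = 0.00142), whereas on day 5 they did, at 504.5, 507 and 633 in GFP-positive against 503, 922 and 1025 in GFP-negative cells. Pcdh10, a delta-2 gene of axon tracts, had means of 6.09 on day 0 and 13.9 on day 3, and on day 5 it was at 67.2, 45 and 79.6 in GFP-positive and at 83.3, 153 and 234 in GFP-negative cells. Its gates did not overlap on day 5, and the difference of -1.20 was not called (adjusted p = 0.147). Antisense or opposite-strand genes also overlap Pcdh7, Pcdh10 and Pcdh19.

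Pcdh15, a component of the tip links of hair cells that is also found in the retina, was at 1.48, 2.20 and 1.59 on day 3 and at 48.0, 52.4 and 53.3 in the day 4 GFP-positive libraries (4.25 ± 0.61, adjusted p = 9.3e-06). In the day 4 GFP-negative libraries it was at 15.2, 7.93 and 12.9, below all of the positive ones, but the difference of 2.05 was not called (adjusted p = 0.0249). On day 5 its means were 32.5 in GFP-positive against 13.8 in GFP-negative cells. Pcdh20 was low throughout. Its means were 1.38 on day 0 and at most 15.7 in every other group except the day 5 GFP-positive cells, where it was at 38.3, 51.7 and 44.5.

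Pcdh12, the vascular endothelial protocadherin, was the one member called between the gates on day 5. It was at 41.7, 23.4 and 19.1 in the GFP-negative and at 2.18, 2.36 and 1.78 in the GFP-positive libraries, without overlap, and was lower in GFP-positive cells by 3.15 ± 0.47 on the log2 scale (adjusted p = 3.69e-05), a call that was kept whichever of the 6 libraries was left out but lost with quantile normalization (-2.33, adjusted p = 0.00268) or with only these 2 groups in the fit (adjusted p = 0.00136). It had risen in GFP-negative cells from 5.40, 3.19 and 2.31 on day 4 (2.63, adjusted p = 0.000727), and that call was lost whichever of the 6 libraries was left out (2.31 to 2.89). Endothelial markers stood beside Pcdh12: of 7 on the list 6 were tested and 4 called lower in the day 5 GFP-positive cells, the summed level of all 7 was 1608 to 2342 in GFP-negative against 754 to 915 in GFP-positive libraries, and Cdh5 had means of 167 and 6.81. From day 4 to day 5 in GFP-negative cells, 3 of the 6 tested were called higher. Their part in the Pcdh12 difference was not tested.

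**Figure D4:**
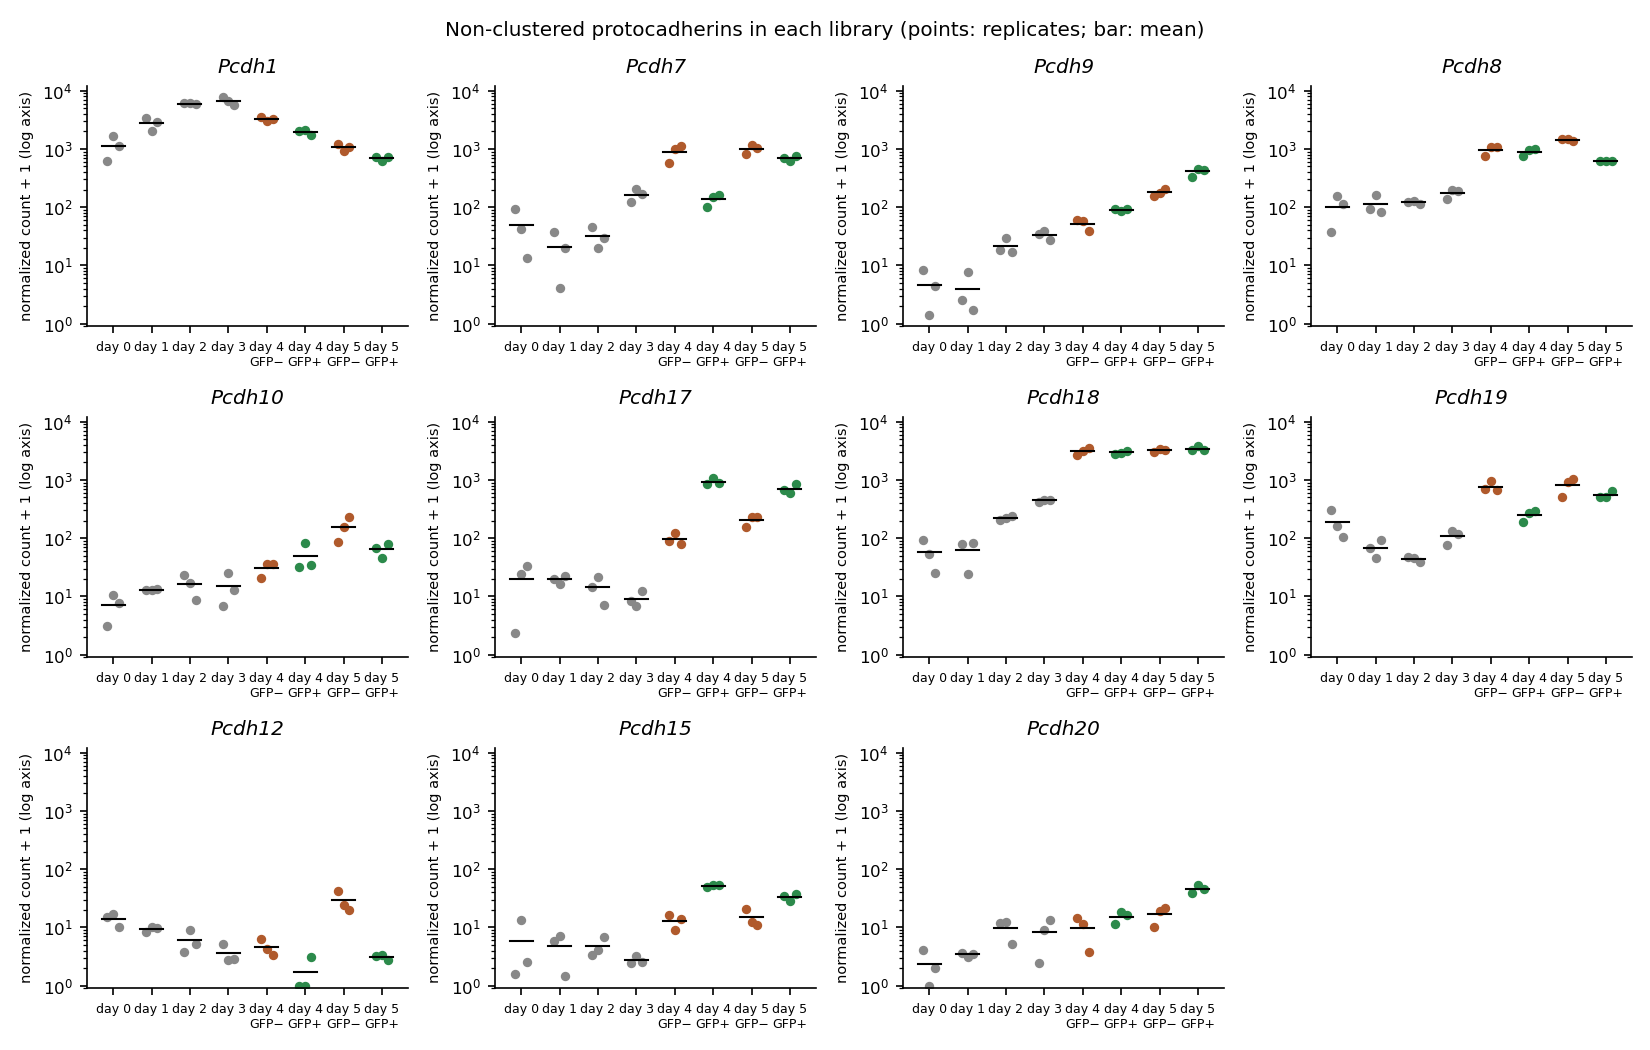
Normalized count + 1 (log axis) of the 11 non-clustered protocadherins in the 8 groups, 1 panel a gene, with a point for each library and a bar for the mean. Pcdh1 is highest on day 3 (mean 6718), Pcdh17 is at 931 in day 4 GFP-positive against 95.1 in GFP-negative cells, and Pcdh12 is at 28.1 in day 5 GFP-negative against 2.10 in GFP-positive cells.

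The comparison of the gates asks which genes separate the Rax-expressing eye field from the rest of the organoid. On day 4, 1 protocadherin was called higher, where 0.328% of all genes were, and 0 lower, where 3.63% were. The one was Pcdh17, with a log2 difference of 3.29 ± 0.61 (adjusted p = 0.000519), and its call was lost whichever of its 6 libraries was left out (3.16 to 3.47, adjusted p = 0.00166 to 0.00358) and with a pseudocount of 0.5 (adjusted p = 0.00107) or without the mean-variance trend (adjusted p = 0.0012). Day 0 replicate 1 is in neither group but enters the shared estimate of the spread, and without it 1 member was called higher and 3 lower. At an adjusted p under 0.05 with no fold required, 3 members (5.36%) were higher and 6 (10.7%) lower, near the 4.43% and 11.3% of all genes. The higher were Pcdh17, Pcdh15 and Pcdhb3 (1.61), and the lower were Pcdh7, Pcdhgc4 (-2.09), Pcdhac2, Pcdh19, Pcdh12 (-1.62) and Pcdh1 (-0.72). The classes differed: of the 11 non-clustered genes 18.2% were higher and 36.4% lower at this threshold. An unadjusted p under 0.05 in limma was found in 54.5% of the non-clustered, 36.4% of the gamma and 14.3% of the alpha members. All 16 tested beta members had a positive difference, as did 50.7% of all genes, with a median of 0.86 against 0.01 over all genes. Of the 16, 4 (25%) had an unadjusted p under 0.05, a share like the 25.7% of all genes.

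On day 5, 0 protocadherins were called higher (0.400% of all genes) and 1 lower, Pcdh12 (4.61% of all genes), and 14 (25%) had an unadjusted p under 0.05 in limma in either direction, against 26.3% of all genes. Pcdh12 passed the filter only through the GFP-negative libraries of that day, where it was high, so its call is given as a description. Without day 0 replicate 1 in the fit, 1 member was called higher and 2 lower. At an adjusted p under 0.05, 5 members (8.93%) were lower and 1 (1.79%) higher, against 12.3% and 3.78% of all genes. The lower members were Pcdh12, Pcdhac2, Pcdhgc4 (-1.48), Pcdh8 and Pcdhgc3, and the higher one was Pcdhb2 (1.20), at 61.1, 47.1 and 55.9 against 19.8, 20.3 and 30.4. Of the 16 tested beta members, 14 had a positive difference (median 0.59), as did 49.6% of all genes. An unadjusted p under 0.05 in limma was found in 63.6% of the non-clustered, 42.9% of the alpha, 12.5% of the beta and 9.09% of the gamma members. Markers of other cells moved with the gates: 6 of 7 mesoderm, 3 of 4 endoderm, 2 of 6 tested endothelial and 2 of 4 neural crest markers were called lower in the day 4 GFP-positive cells, and 5, 4, 4 and 2 on day 5, while 0 neuronal markers were called on either day. Their part in the protocadherin differences was not tested.

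The change of the gate difference from day 4 to day 5 was tested as an interaction. No protocadherin was called in limma (0.0762% of all genes were called higher and 0.0333% lower), and 6 of 56 had an unadjusted p under 0.05, as did 1974 of the 21005 genes. These 6 were Pcdh7 (2.17 ± 0.87), Pcdh10 (-1.79 ± 0.75), Pcdh19 (1.11 ± 0.47), Pcdh12 (-1.53 ± 0.66), Pcdh8 (-1.09 ± 0.47) and a Pcdha11 entry (ENSMUSG00000007440, -1.47 ± 0.70), with adjusted p of 0.368 to 0.531. A difference between the days is therefore not shown for any member, including Pcdh12 and Pcdh17, each called on 1 of the days.

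**Figure D5:**
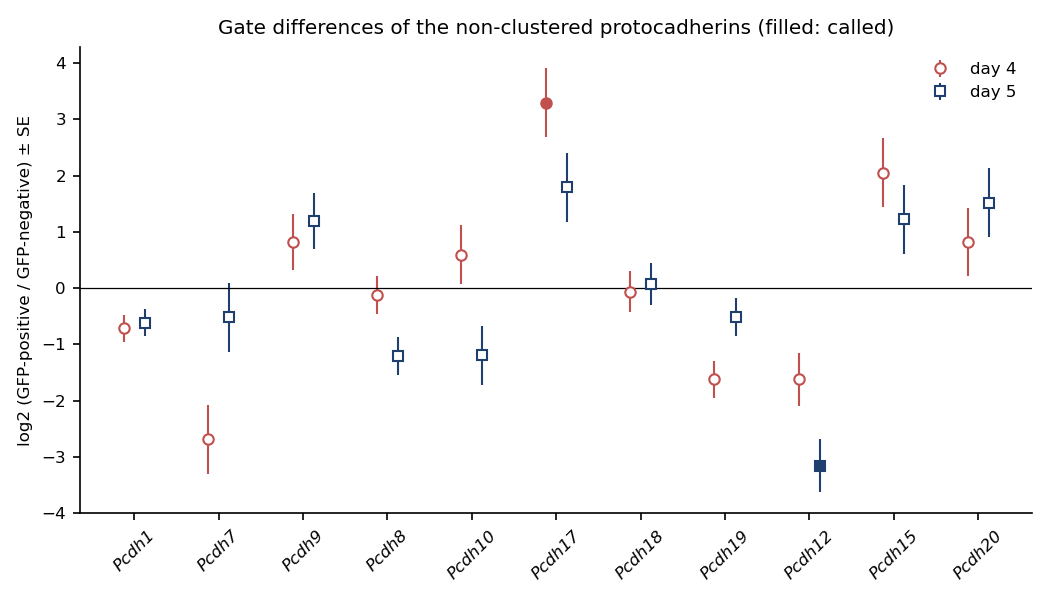
Log2 difference of GFP-positive from GFP-negative cells, with its SE, for the 11 non-clustered protocadherins on day 4 (circles) and day 5 (squares), filled where called. Pcdh17 is highest on day 4 at 3.29 and Pcdh12 lowest on day 5 at -3.15, and Pcdh18 lies near 0 on both days.

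Within a gate few members passed both thresholds from day 4 to day 5. In GFP-positive cells 0 rose (0.595% of all genes) and Pcdh1 fell (0.890% of all genes fell), with 14 members (25%) at an unadjusted p under 0.05 in limma, against 20.3% of all genes. At an adjusted p under 0.05, 5 members (8.93%) were higher, against 4.57%, and 1 (1.79%) lower, against 5.24%. Pcdh9 had a difference of 2.17 (adjusted p = 0.00591), Pcdh7 of 2.38 (adjusted p = 0.0141) and Pcdhac2 of 2.01 (adjusted p = 0.00797), none of them called. In GFP-negative cells Pcdhac2 and Pcdh12 rose (0.762% of all genes) and Pcdh1 fell (0.509% of all genes). The filter favoured the Pcdh12 call, as given above. At an adjusted p under 0.05 with no fold required, 9 members (16.1%) were higher, against 5.72% of all genes, and 2 (3.57%) lower, against 4.45%. Positive changes were found in 48 of the 56 members, among them all 16 tested beta members (median 0.94), and in 50.8% of all genes. Of the members 30.4% had an unadjusted p under 0.05, against 22.9% of all genes. Cell markers moved in this step too: 3 of 6 tested endothelial markers were called higher. Of the others, 4 of 7 mesoderm, 1 of 5 pluripotency and 1 of 4 neuronal markers were called lower. Their part in the protocadherin changes was not tested. Pcdh10 (2.29, adjusted p = 0.00694), Pcdhgc3 (0.99, adjusted p = 0.00645) and Pcdhgc4 (-1.78, adjusted p = 0.00957) were not called.

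Across the whole course, from day 0 to the GFP-positive cells of day 5, 43 of the 56 tested members rose, against 11.2% of all genes, and 2 fell, against 14.9%. The median change was 3.08 over the members and -0.06 over all genes. The members called higher were 15 of 16 beta, 15 of 22 gamma, 4 of 7 alpha and 9 of 11 non-clustered genes. Of the 34 members that reached the filter on days 0 to 3 alone, 25 rose and 1 fell (median 2.41), and the 13 beta members that did not reach it there were all called higher, a rise that the filter largely fixed. Markers of cell state moved in the same comparison: all 5 eye field markers were called higher, and all 5 pluripotency, 5 of 6 tested endothelial, 3 of 4 neuronal, 3 of 7 mesoderm and 1 of 4 neural crest markers lower, while 1 endoderm and 1 endothelial marker were called higher and 1 endoderm marker lower. Their part in the protocadherin changes was not tested. Without day 0 replicate 1, 41 rose and 1 fell.

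The beta changes lay between 1.83 and 5.85 and were led by Pcdhb11 (2.79, 0 and 0 on day 0 and 88.1, 97.7 and 81.4 on day 5; 5.85, adjusted p = 1.02e-08), Pcdhb2 (5.24), Pcdhb3 (4.53) and Pcdhb18 (4.46). Pcdhb14 was the tested beta member without a call (1.55, adjusted p = 0.00499). Without day 0 replicate 1 the changes of Pcdhb11 and Pcdhb3 were 6.49 and 5.32, and Pcdhb22, the highest beta member by mean count over all libraries, had a change of 3.04, or 2.38 without day 0 replicate 3. The Pcdhb17 call (1.83) was lost without day 0 replicate 3 (1.42) or day 5 GFP-positive replicate 3 (1.74).

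The gamma members that rose did so by 2.04 to 5.24, the largest changes being those of Pcdhga6 (5.24, or 6.30 without day 0 replicate 3), Pcdhga8 (3.71, with 4.58 without day 0 replicate 1 and 2.27 without day 0 replicate 2) and Pcdhga9 (3.64). Pcdhgc4 fell by 3.74 ± 0.43 (adjusted p = 1.58e-07), the reverse of its neighbour Pcdhgc3, which rose by 2.55 ± 0.23 (adjusted p = 3.07e-09). Of the alpha members, Pcdhac2 rose (2.19, adjusted p = 0.000459), and its call was lost without day 0 replicate 1 (1.77) or without day 5 GFP-positive replicate 1, 2 or 3 (2.28, 2.04 and 2.25). Pcdha6, Pcdha9 and 1 Pcdha11 entry (ENSMUSG00000007440) were listed at 0 in all day 0 libraries and at 4.86 to 17.4, 4.54 to 10.9 and 4.88 to 13.6 on day 5, so no fold is given, and the first 2 of these calls were lost without day 5 GFP-positive replicate 2 or 3.

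Among the non-clustered genes the largest changes over the course were those of Pcdh9 (6.78 ± 0.50, adjusted p = 1.44e-10), Pcdh18 (6.08 ± 0.37, adjusted p = 6.03e-12) and Pcdh17 (5.80 ± 0.61, adjusted p = 4.44e-08). The day 0 libraries decided the size of several. Pcdh17, at 1.40, 22.8 and 32.8 on day 0, changed by 4.62 without replicate 1 and by 6.52 without replicate 3, and Pcdh9, at 7.20, 0.404 and 3.43, changed by 6.08 without replicate 2. Pcdh7, at 91.1, 41.9 and 12.2 on day 0, rose by 4.21 (4.86 without replicate 1 and 3.46 without replicate 3). Pcdh8 rose by 2.85 (2.25 without day 0 replicate 1).

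Pcdh20 (4.49), Pcdh10 (3.33), Pcdh15 (3.14) and Pcdh19 (1.66) were also called higher. The Pcdh15 call was lost without day 0 replicate 1 (2.51) or replicate 3 (2.86), and its change was 4.04 without replicate 2. The Pcdh19 call was lost without day 0 replicate 2 (1.61) or 3 (1.29) or day 5 GFP-positive replicate 3 (1.55). Pcdh12 fell by 2.15 ± 0.47 (adjusted p = 0.000439), from 14.3, 15.7 and 9.26 on day 0, a call lost when any of its libraries but day 0 replicate 3 was left out (-2.02 to -2.21). Pcdh1, at -0.60 (adjusted p = 0.0355), was not called over the whole course.

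Genes known to regulate the clusters and partners of the proteins were measured beside them. Of 18 regulators, 0 were called higher and 2 lower from day 3 to the day 4 GFP-positive cells (Dnmt3b and Dnmt3a), where 7.36% of all genes were called lower, and 0 higher and 3 lower from day 0 to the day 5 GFP-positive cells (these 2 and the cohesin release factor Wapl), where 14.9% of all genes were called lower. The means of Dnmt3b, the de novo methyltransferase that methylates clustered protocadherin promoters, were 22689 on day 0, 128195 on day 3, 15441 (GFP-positive) and 38499 (GFP-negative) on day 4 and 5640 and 8983 on day 5. It rose by 2.72 from day 0 to day 3 (adjusted p = 1.66e-07) and fell by 3.05 from day 3 to the day 4 GFP-positive cells (adjusted p = 3.03e-08). Ctcf and Smchd1, a chromatin protein that restrains the clusters, were called in none of the 12 comparisons. Of 17 partner and signalling genes, 1 was called higher and 0 lower in either gate of day 4 against day 3, where 3.33% (GFP-positive) and 2.00% (GFP-negative) of all genes were called higher. From day 0 to the day 5 GFP-positive cells 2 were called higher and 1 lower, against 11.2% and 14.9% of all genes. Cdh2, which codes for N-cadherin, rose from a mean of 2081 on day 3 to 15201 in GFP-positive (2.88, adjusted p = 2.68e-11) and 9355 in GFP-negative cells (2.17, adjusted p = 1.53e-08) on day 4. Fyn rose by 1.67 and Ptk2b, a kinase that clustered protocadherins inhibit, fell by 3.25 from day 0 to the day 5 GFP-positive cells. Whether any of these changes bears on the protocadherins was not tested.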

How the data were processed

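RNA was measured in 24 libraries of OV organoids from mouse Rax-GFP stem cells. The authors deposited 1 value for each gene and library, a normalized signal (normalized counts). They pseudo-aligned reads with kallisto (version 0.43.1 in the submitters' processing notes) to the Ensembl cDNA and ncRNA sets (mm10) and normalized the estimates with DESeq2. kallisto divides reads shared by several transcripts among them by estimate, so shared exons make single alpha and gamma values uncertain. Strandedness is not given in the sources used here, so antisense overlaps add to this. Columns with the authors' own gene calls were not used.

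Samples were grouped by their titles. Replicates are described as biological, but p-values measure only the spread between these libraries. The members and lists were chosen with earlier results of these data known. Values were transformed as log2(value + 1) for genes that reached 10 in 3 or more libraries and fitted with limma 3.58.1 in R 4.3.3 (all 24 libraries, mean-variance trend, no block), with Benjamini-Hochberg adjustment within each of 12 contrasts, after a test on simulated data. The median residual SD was 0.308 (log2). Calls were made at an adjusted p below 0.001 where the log2 fold change was also beyond 1.5 in size. Named genes were every non-clustered member, the 4 highest of each cluster, up to 4 called cluster members with the largest change per comparison, and up to 3 called list genes in each direction, beside Dnmt3b, Smchd1 and Ctcf. Other cluster members named with a value, such as those at a looser threshold or whose call rests on 1 library, were chosen after their values were seen. Gene models were from GENCODE M21 (GRCm38), and 31-base words were counted over 141767 transcripts. Levels per kb were divided by the length of all exons. Promoters were RefSeq's. Sequences from chromosome 18 are not shown. Tables and figures were made in Python 3.11.15 with pandas 2.3.3, matplotlib 3.10.9, scipy 1.17.1 and numpy 2.4.6. Alternatives were other pseudocounts, filters, normalization, thresholds and subsets of libraries. The members that failed the filter for low values were 7 alpha and 6 beta genes, and the part of depth in this was not tested.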

Additional observations from a re-analysis of the deposited data

How the results depend on the processing

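Protocadherins called (higher or lower) are given under each alternative that moved their number by over 1.5 times. From day 0 to day 1 the 2 calls became 0 (pseudocount 5, or only the groups compared in the fit), 1 (no filter, or a replicate block) or 11 (adjusted p under 0.05, no fold). From day 1 to day 2 the 2 became 1 (pseudocount 0.5, no filter, or a replicate block), 0 (no trend, or only the groups compared) or 7 (adjusted p under 0.05). From day 2 to day 3 the 1 became 2 (pseudocount 0.5, or no trend), 0 (only the groups compared) or 16 (adjusted p under 0.05), and from day 0 to day 3 the 6 became 0 (only the groups compared) or 23 (adjusted p under 0.05). Between day 3 and day 4 the 26 (GFP-positive) and 13 (GFP-negative) became 41 and 34 at an adjusted p under 0.05. Between the gates the 1 of day 4 became 0 (pseudocount 0.5, or no trend), 3 (pseudocount 5), 2 (replicate block) or 9 (adjusted p under 0.05), and the 1 of day 5 became 2 (pseudocount 5), 0 (quantile normalization) or 6 (adjusted p under 0.05). From day 4 to day 5 the 1 in GFP-positive cells became 2 (pseudocount 5), 0 (only the groups compared) or 6 (adjusted p under 0.05), and the 3 in GFP-negative cells became 1 (pseudocount 0.5, no filter, quantile normalization, or only the groups compared), 5 (pseudocount 5) or 11 (adjusted p under 0.05). The 45 from day 0 to day 5 became 28 (filter of 50) or 23 (only the groups compared), the first with fewer genes tested and the second with fewer samples. The cause of the other moves was not tested. Leaving out 1 library gave 1 to 3, 0 to 3, 0 to 3, 4 to 8, 19 to 27, 8 to 15, 0 to 4, 1 to 3, 0 to 1, 0 to 3 and 36 to 42 calls in the same order of comparisons, where the upper ends include fits that leave out day 0 replicate 1, an alternative chosen after seeing the data. The interaction had 0 under every alternative run. Of 71 calls of named members none reversed, and 34 were lost with only the groups compared, 8 with either pseudocount, 7 with no filter, 6 with no trend, 6 with quantile normalization and 4 with the replicate block. By the study's methods the day 4 and day 5 samples were sorted into both gates, so gate libraries of the same number may come from the same organoids. The sources used here do not say whether they do, and the main fit used no pairing. Correlations of same-numbered deviations ran from -0.108 to 0.147 between the gates and from -0.284 to 0.241 over all comparisons. Taken from group means of few libraries, they cannot show that pairing is absent. Quantile normalization moved the median of all genes from day 0 to day 5 by 0.15.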
